A study of Bos taurus with 12 samples.

Results

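Endometrium exposed to very high progesterone was compared with endometrium exposed to low progesterone in dairy cows (Bos taurus). The comparison holds 6 of the 12 sequenced libraries, chosen by their labelled progesterone class and not by any expression value. The very high class (library titles beginning with SO) lay above 20 ng/ml on day 4 of the estrous cycle, and the low class (titles beginning with LPP4) lay below 1.4, with 3 libraries in each. The labels give the low bound in mg/dl where every other class has ng/ml, so the ratio of the bounds is not used here. The other classes are a high class above 2.5 ng/ml (HPP4) and a very low class below 0.25 ng/ml (ANE), again with 3 libraries each. They serve below as further reference points. All samples are endometrial tissue of grazing dairy cows, and the labels give no treatment, no age and no animal for a library. They also do not say how the very high concentrations arose, or whether 2 libraries could share a cow. P-values therefore measure the spread between these libraries, whatever its source.

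The endometrium is the glandular lining of the uterus, and the myometrium is the smooth muscle wall beneath it. Progesterone, made by the corpus luteum after ovulation, acts through the progesterone receptor and prepares the lining to feed an embryo. In ruminants the epithelium is known to lose progesterone receptor under sustained progesterone, and estrogen drives growth and secretion around ovulation. Around estrus the bovine uterus is also known to hold neutrophils and antimicrobial secretions.

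Reads per gene were counted by the submitters, and the 6 libraries held 7036929 to 8379489 counts each (3772564 to 8379489 over the series). Of 13930 gene symbols, 10959 had enough counts to be tested. Levels are given as CPM, read counts scaled to a common library size after correcting for library composition. Epithelial and stromal markers, which define endometrium, were present in all 6 libraries, with none of either list at 0 in a whole class. The summed CPM of the epithelial list was 3194 to 5612 in the low class and 2907 to 3849 in the very high class. Smooth muscle markers did stand apart: their summed CPM was 1011 to 2665 in the low class and 17902 to 34343 in the very high class. It was 17344 to 43492 in the high class, and in the very low class 1172 and 2565 in replicates 2 and 3 against 103404 in replicate 1. That very low library enters the shared estimate of spread but not the contrast, so counts are also given without it. Within the low class the rank correlation of libraries was 0.881 to 0.942, and within the very high class 0.961 to 0.976.

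No gene passed the threshold for very high against low when all 12 libraries informed the spread. With edgeR's quasi-likelihood test, 0 of 10959 genes (0%) had an adjusted p below 0.05, and the smallest adjusted p was 0.196, shared by EVPL, ACTC1, CD68 and P2RX1. At an unadjusted p below 0.05 there were 1304 genes (11.9%), of which 489 (4.46%) had higher and 815 (7.44%) had lower values in the very high class. The ranges of the classes did not overlap for 2500 genes (22.8%), 1289 higher (11.8%) and 1211 lower (11.1%). DESeq2 on the same counts called 370 genes, 121 higher and 249 lower. Fitting the 6 libraries alone, edgeR called 87 genes of 10642 (0.818%), 42 higher (0.395%) and 45 lower (0.423%). Without very low replicate 1 the count was 65, and without the whole very low class, an alternative added after the data were seen, it was 223. The number of genes called thus ran from 0 to 370 with the choice of test and of libraries that set the spread, and the biological coefficient of variation was 44.0% over 12 libraries and 35.4% over 6.

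**Figure D1:**
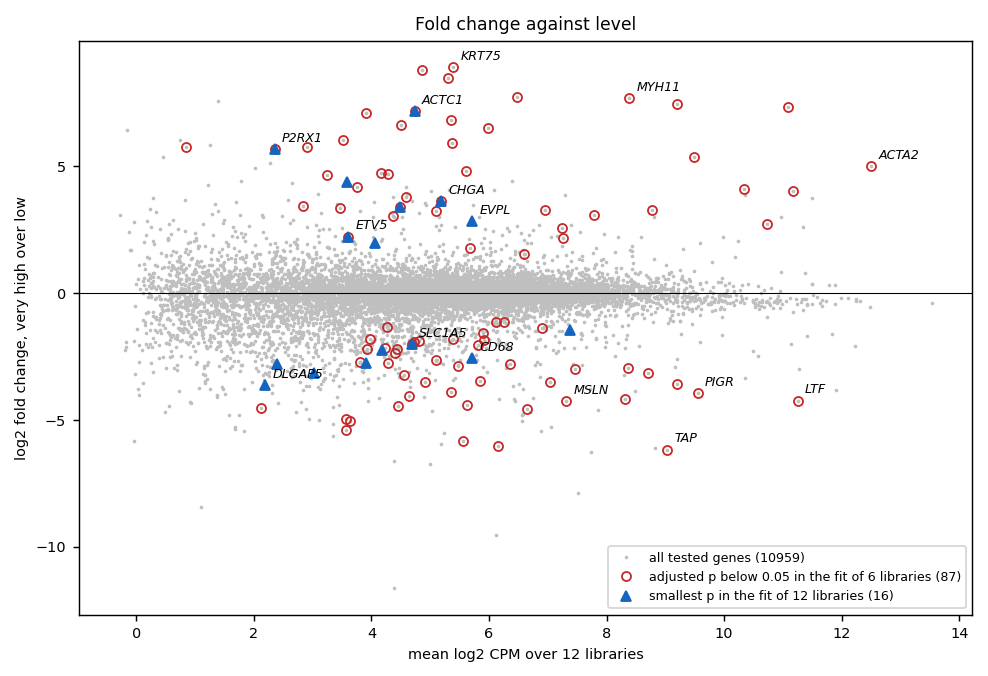
Log2 fold change of very high over low progesterone (y axis) against the mean log2 CPM over 12 libraries (x axis) for 10959 tested genes. Rings mark the 87 genes called in the fit of the 6 libraries alone, and triangles the 16 genes with the smallest p in the fit of 12 libraries, none of which passed the threshold there.

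The 8 genes with the smallest p on the higher side hold several genes of contractile and excitable cells. EVPL, which encodes envoplakin, a linker of desmosomes in stratified epithelia, had 9.49, 13.8 and 13.3 CPM in the low libraries and 40.4, 80.1 and 141 CPM in the very high libraries (log2 fold change 2.83, SE 0.41, edgeR adjusted p = 0.196). ACTC1, the alpha-actin best known from cardiac muscle, had 0.132, 1.02 and 0.145 CPM in the low libraries and 25.9, 31.7 and 143 CPM in the very high ones (log2 fold change 7.18, SE 1.10, edgeR adjusted p = 0.196). P2RX1, an ATP-gated cation channel of smooth muscle, had 0.395, 0.128 and 0 CPM against 5.03, 10.5 and 14.2 CPM (log2 fold change 5.67, SE 0.91, edgeR adjusted p = 0.196). For each of these genes every very high library lay above every low library, and the lowest values were near the counting limit for ACTC1 and P2RX1 in the low class. MYL4, a myosin light chain of embryonic and atrial muscle, had 1.32, 0.512 and 0.724 CPM against 8.92, 10.97 and 34.7 CPM. Its reads could not be separated from those of CDC27, whose gene it overlaps. SLC8A1, the plasma membrane sodium-calcium exchanger, had 7.12, 6.65 and 5.79 CPM against 14.4, 30.5 and 32.6 CPM (log2 fold change 1.98, SE 0.36, edgeR adjusted p = 0.237).

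The other genes of this side have roles outside the contractile apparatus. ETV5, an ETS family transcription factor downstream of growth factor signalling, had 3.82, 7.68 and 4.49 CPM in the low libraries and 27.6, 20.1 and 27.4 CPM in the very high libraries (log2 fold change 2.23, SE 0.38, edgeR adjusted p = 0.237). The very high values of ETV5 were also above the high class, at 7.09 to 12.9 CPM, although that difference did not pass the threshold (log2 fold change 1.46, edgeR adjusted p = 0.9999). ADCY8, a calcium-stimulated adenylyl cyclase, had 6.33, 4.61 and 2.17 CPM against 32.3, 31.2 and 74.5 CPM, with 0.5302 to 2.84 CPM in the very low class. CHGA, the gene of chromogranin A, a protein of secretory granules, had 6.46, 13.1 and 3.33 CPM against 102, 127 and 53.6 CPM (log2 fold change 3.62, SE 0.65, edgeR adjusted p = 0.237). The very low class had 1.03 to 4.24 CPM of CHGA and the high class 17.98 to 61.9 CPM, so the high class was above all low libraries and overlapped only very high replicate 3.

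On the lower side, the 8 genes with the smallest p include a macrophage marker and several genes of dividing cells. CD68, a lysosomal protein typical of macrophages, had 76.3, 47.7 and 133 CPM in the low libraries and 17.96, 14.6 and 10.7 CPM in the very high libraries (log2 fold change -2.57, SE 0.41, edgeR adjusted p = 0.196). TPX2, which assembles the mitotic spindle, had 15.6, 13.4 and 42.98 CPM against 4.46, 3.37 and 2.77 CPM (log2 fold change -2.75, SE 0.52, edgeR adjusted p = 0.268). KIF11, the motor that separates spindle poles, had 12.5, 6.27 and 20.3 CPM against 2.06, 1.12 and 1.19 CPM. In all 3 genes the classes did not overlap, and for both spindle genes low replicate 3 held the highest value. DLGAP5, another spindle protein, had 5.54, 4.09 and 13.7 CPM against 0.801, 0.499 and 0.528 CPM (log2 fold change -3.63, SE 0.73, edgeR adjusted p = 0.268). MXD3, a repressor of the MYC network, had 6.33, 3.84 and 14.2 CPM against 1.37, 1.12 and 0.923 CPM. The classes did not overlap for either gene, and DLGAP5 was below 1 CPM in all 3 very high libraries. In bulk tissue fewer cells of a type and less RNA per cell cannot be told apart, for these genes and for every marker below.

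The remaining lower genes serve metabolism. SLC1A5, the main glutamine transporter of growing cells, had 30.8, 43.1 and 33.1 CPM in the low libraries and 9.04, 8.97 and 8.84 CPM in the very high libraries (log2 fold change -1.99, SE 0.41, edgeR adjusted p = 0.268). The very high libraries were nearly alike for SLC1A5, and the high class lay close to them at 7.78 to 16.9 CPM. PLTP, the phospholipid transfer protein, had 331, 166 and 337 CPM against 128, 95.4 and 79.7 CPM (log2 fold change -1.46, SE 0.29, edgeR adjusted p = 0.268), and it overlaps CTSA. HACD4, an enzyme of very long chain fatty acid elongation, had 18.8, 16.5 and 46.02 CPM against 7.44, 3.99 and 5.805 CPM. Of these 16 genes, 14 had every high-class library on the same side of all low libraries as the very high class. For 10 the range of the high class overlapped that of the very high class. The 16 genes were picked by p against these same low libraries, which favours such counts. The shares over all tested genes were not computed, so no conclusion is drawn from them. None of the 16 had an adjusted p below 0.05 for very high against high.

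**Figure D2:**
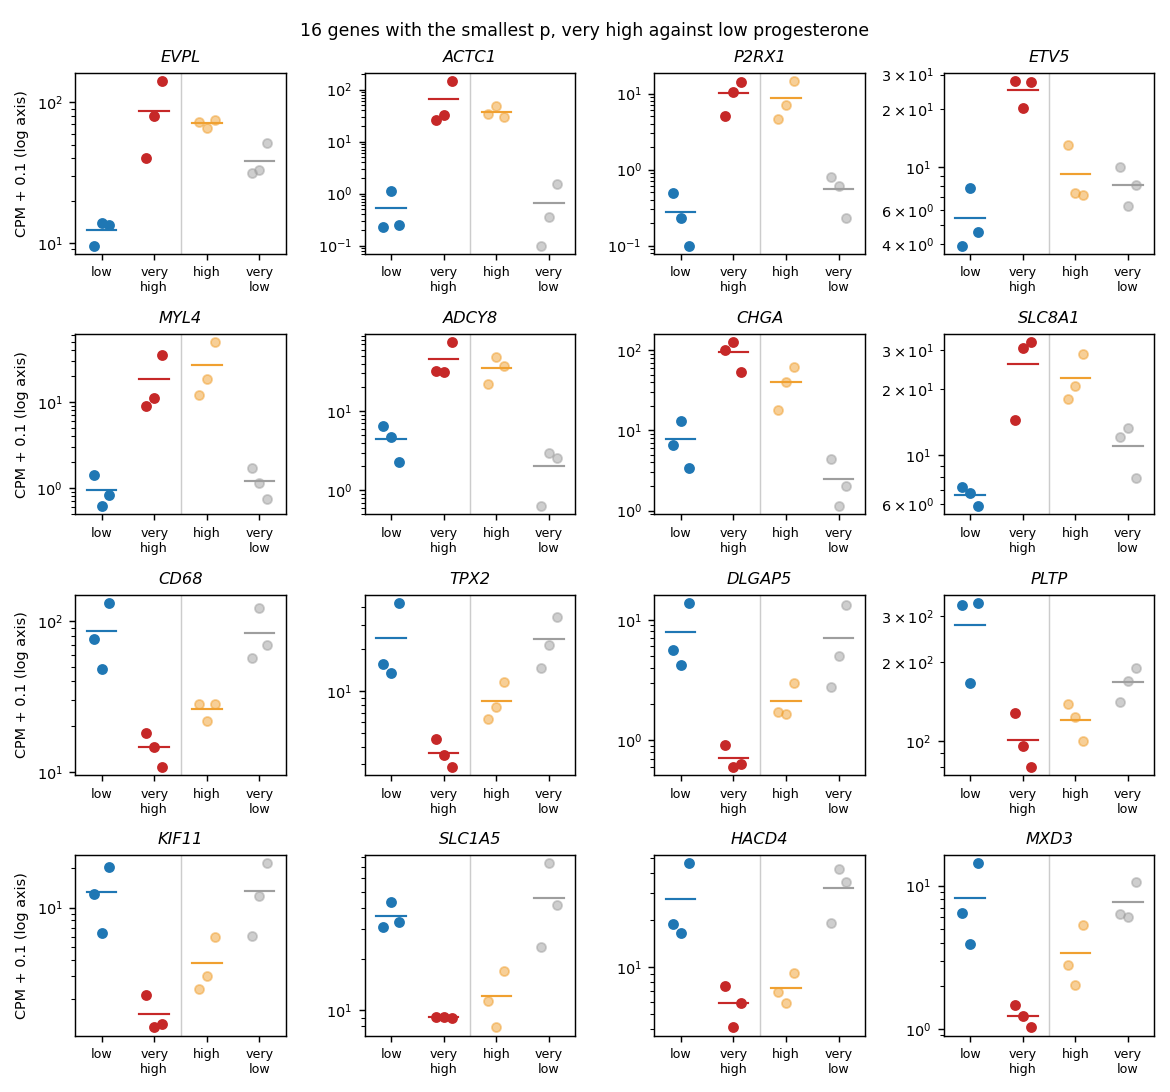
CPM (log axis, with 0.1 added) in each library for the 16 genes with the smallest p, 8 higher (upper rows) and 8 lower (lower rows), with points for libraries and lines for class means (n = 3). In each gene the very high and low points do not overlap, and the high class mostly lies beside the very high class.

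Both main receptors of the ovarian steroids had log2 fold changes under 0.5 in size and far from the threshold. PGR, the progesterone receptor, had 27.7, 33.01 and 36.3 CPM in the low libraries and 20.02, 25.1 and 27.6 CPM in the very high libraries (log2 fold change -0.42, SE 0.27, edgeR adjusted p = 0.604). ESR1, the main estrogen receptor, had 31.1, 84.4 and 17.5 CPM against 21.5, 29.8 and 49.2 CPM (log2 fold change -0.41, SE 0.58, edgeR adjusted p = 0.837). The PGR ranges nearly touched, the ESR1 ranges overlapped, and without low replicate 2 the ESR1 fold change reversed to 0.48. OXTR, the oxytocin receptor through which luteolytic prostaglandin release is triggered, had 6.85, 11.1 and 21.7 CPM against 2.52, 4.49 and 6.73 CPM (log2 fold change -1.53, SE 0.72, edgeR adjusted p = 0.436). The OXTR ranges did not overlap, and the very low class stood far above both at 56.2 to 209 CPM. NR3C1, the glucocorticoid receptor, had 57.5, 39.7 and 58.8 CPM against 27.9, 25.2 and 30.9 CPM (log2 fold change -0.89, SE 0.25, edgeR adjusted p = 0.268). FKBP5, a chaperone of steroid receptors whose gene responds to progesterone and glucocorticoids, had 184, 182 and 99.6 CPM against 286, 197 and 316 CPM (log2 fold change 0.78, SE 0.29, edgeR adjusted p = 0.322). NR3C2, the mineralocorticoid receptor, named after its values were seen, had 1.85, 5.502 and 1.59 CPM against 6.98, 7.98 and 8.18 CPM, every very high library being above every low one.

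Of the 17 tested steroid receptors and partners, 4 had every very high library above and 2 every very high library below all low libraries, against 11.8% and 11.1% of all tested genes, and the median log2 fold change was 0.19 against -0.01 over all tested genes. Among 35 tested genes known to respond to progesterone in endometrium, 2 were separated upward and 4 downward, with a median of -0.09 (0.17 without low replicate 3). CTSL, the lysosomal protease cathepsin L, had 6.72, 5.63 and 29.96 CPM against 2.75, 1.75 and 1.19 CPM (log2 fold change -2.88, SE 0.73, edgeR adjusted p = 0.268). ANPEP, a surface aminopeptidase that is also on the list of stromal fibroblast markers, had 549, 2021 and 167 CPM against 106, 141 and 49.2 CPM, so low replicate 2 was far above the other low libraries. Among 20 genes known to respond to estrogen, none was separated upward and 7 were separated downward, with a median of -0.72. They include TFF3, a mucosal trefoil peptide, at 182, 278 and 184 CPM against 24.9, 12.96 and 19.00 CPM. LTF, the iron-binding antimicrobial protein lactoferrin, had 4556, 2906 and 2595 CPM against 181, 138 and 215 CPM (log2 fold change -4.23, SE 1.47, edgeR adjusted p = 0.298).

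Of 17 prostaglandin and oxytocin genes, 3 were separated upward and 3 downward, against 11.8% and 11.1% of all tested genes, with a median of -0.01. PTGES, which makes prostaglandin E2, had 4.48, 45.8 and 50.1 CPM in the low libraries and 3.43, 1.25 and 3.03 CPM in the very high ones (log2 fold change -3.69, SE 1.02, edgeR adjusted p = 0.268). AKR1C4, an aldo-keto reductase, had 7.12, 15.7 and 5.35 CPM against 45.99, 49.1 and 51.3 CPM (log2 fold change 2.37, SE 0.70, edgeR adjusted p = 0.268). Low replicate 1 had little PTGES and lay only just above the very high libraries, whereas AKR1C4 was close to even within the very high class. Among insulin-like growth factor genes, IGFBP5 and IGFBP3, which bind and modulate these growth factors, stood on opposite sides. IGFBP5 had 3.95, 10.5 and 4.34 CPM against 31.6, 39.6 and 50.4 CPM, and IGFBP3 had 141, 43.8 and 153 CPM against 28.03, 38.3 and 27.8 CPM (log2 fold change -1.84, SE 0.66, edgeR adjusted p = 0.305). Of 11 tested members, 2 were separated upward and 1 downward, with a median of 0.06.

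Of 17 tested WNT ligands and inhibitors, 3 were separated upward and 1 downward, against 11.8% and 11.1% of all tested genes, with a median of 0.25. The 2 with the smallest p are both inhibitors. FRZB, a secreted WNT antagonist, had 0.923, 1.15 and 3.91 CPM in the low libraries and 19.3, 10.7 and 38.1 CPM in the very high libraries (log2 fold change 3.51, SE 0.83, edgeR adjusted p = 0.268). DKK2, another secreted antagonist, had counts of 1 in the low libraries together and 81 in the very high libraries, a ratio of 74.2-fold (95% counting interval 12.95 to 2968). In very low replicates 1 to 3 DKK2 had 4.07, 0 and 0.26 CPM. Among TGF-beta and BMP genes 1 of 18 was separated upward and none downward. LTBP1, which holds latent TGF-beta in the matrix, had 30.3, 35.2 and 129 CPM against 241, 133 and 222 CPM, while TGFB1 itself had overlapping ranges of 25.8 to 55.6 and 18.5 to 29.7 CPM and shares its locus with CCDC97 and HNRNPUL1. HOXA10, a homeobox factor of uterine receptivity, had 74.6, 122 and 137 CPM against 202, 212 and 221 CPM (log2 fold change 0.93, SE 0.44, edgeR adjusted p = 0.444). Of 15 uterine transcription factors 2 were separated upward and none downward, and KLF4 was dominated by low replicate 2, with 31.4, 661 and 73.1 CPM in the low class and 52.3, 39.3 and 26.8 CPM in the very high class.

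Dividing-cell genes showed the broadest separation of any process list. Of 30 tested genes of mitosis and the spindle, 26 had every very high library below every low library, against 11.1% of all tested genes, none was separated upward, and all 30 fold changes were below 0. Their median log2 fold change was -2.32, against -0.01 over all tested genes. The summed CPM was 589 to 755 in the low class, 417 to 539 in the high class and 277 to 286 in the very high class. In the very low class the sums were 192, 464 and 695 CPM, so they did not follow the order of progesterone. Chosen after their values were seen, 3 further examples follow. UBE2C, which ubiquitinates mitotic cyclins, had 23.7, 17.4 and 59.5 CPM against 4.23, 1.87 and 3.83 CPM. CDC20, an activator of the anaphase-promoting complex, had 13.2, 6.65 and 35.3 CPM against 2.06, 1.12 and 1.85 CPM, and BIRC5, the survivin of the chromosomal passenger complex, had 10.1, 12.2 and 32.7 CPM against 3.204, 2.12 and 1.45 CPM. DESeq2 called 22 of the 30 lower, against 249 of all 10959 genes. The fit without the very low class called 10, against 115 of 10820. The fit of the 6 libraries alone called none, against 45 of 10642 (0.423%).

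Of 26 DNA replication genes tested, 5 were separated downward and none upward, against 11.1% and 11.8% of all tested genes, with a median of -0.24 (0.03 without low replicate 3). RRM2, the inducible subunit of ribonucleotide reductase, had 37.8, 13.7 and 87.1 CPM against 7.44, 3.24 and 3.298 CPM (log2 fold change -3.30, SE 0.77, edgeR adjusted p = 0.268), and E2F1, a driver of S phase genes, had 9.09, 7.04 and 14.04 CPM against 3.55, 3.12 and 2.11 CPM. UHRF1, which maintains DNA methylation after replication, fell in the fit of the 6 libraries (log2 fold change -1.35, edgeR adjusted p = 0.0463).

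**Figure D3:**
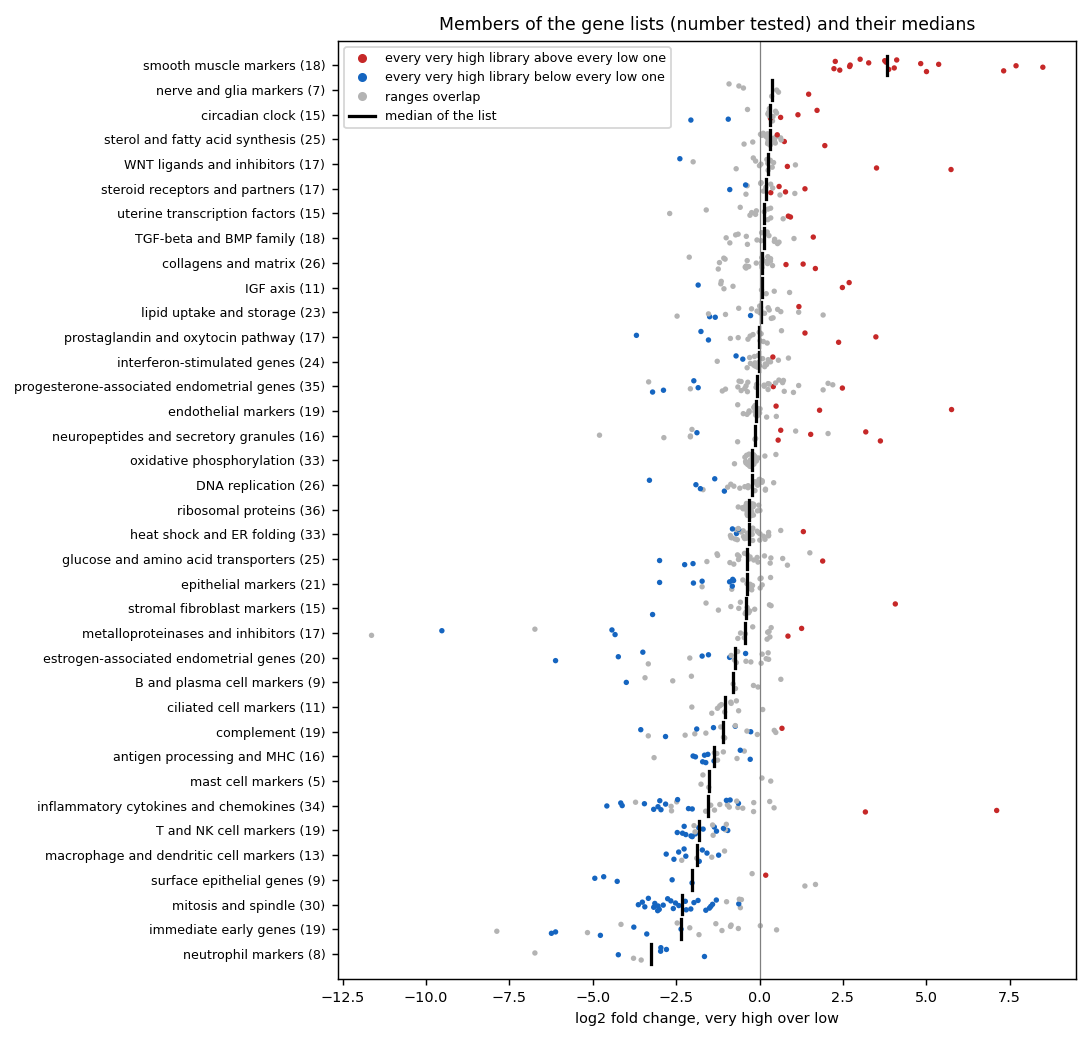
Log2 fold change of very high over low (x axis) for each tested member of 37 gene lists, ordered by median (black bar), with the number tested in parentheses. Red and blue points have non-overlapping classes. All 18 smooth muscle genes are red, and 26 of 30 mitosis genes are blue.

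Smooth muscle genes were the most completely separated list. All 18 tested members had every very high library above every low library, against 11.8% of all tested genes, with a median log2 fold change of 3.83 against -0.01 over all tested genes. MYH11, the smooth muscle myosin heavy chain, had 2.11, 1.92 and 2.17 CPM in the low libraries and 221, 302 and 769 CPM in the very high libraries (log2 fold change 7.69, SE 2.16, edgeR adjusted p = 0.268), and it overlaps NDE1. KCNMB1, the beta subunit of the calcium-activated potassium channel of smooth muscle, had counts of 3 in the low libraries together and 1294 in the very high libraries, a ratio of 395-fold (95% counting interval 135 to 1919.7). ACTA2, smooth muscle alpha-actin, had 109, 173 and 281 CPM against 4325, 4766 and 9007 CPM. DES, the muscle intermediate filament desmin, had 60.6, 81.6 and 210.0 CPM against 1709, 1431 and 2654 CPM. In the very high class replicate 3 was the highest library for all of these, and KCNMB1 had 1 count in each low library.

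The levels of these muscle genes in the other classes did not follow the order of progesterone. MYH11 reached 309.8 to 494 CPM in the high class. In the very low class it had 1455, 2.07 and 3.12 CPM in replicates 1 to 3. The median log2 fold change of the list was 4.20 for high against low and -0.21 for very high against high. The labels do not say how deep each biopsy reached, and muscle content and progesterone class cannot be told apart within these 6 libraries. With the muscle score, the mean log2 CPM of the list, as a covariate over 12 libraries, 84 of 10959 genes were called in place of 0. Of these, 66 were higher and 18 lower, and 7 of 21 epithelial markers were called higher. In that fit the median log2 fold change of the mitosis genes was -1.61, that of the T and NK cell markers -0.92, that of the neutrophil markers -0.18 and that of the inflammatory cytokines 0.07, against -2.32, -1.82, -3.26 and -1.54 without the covariate. The slope of the covariate comes from differences within classes. The muscle score ran from 4.42 to 5.40 in the low class, 8.68 to 9.79 in the very high class and 4.55 to 11.05 in the very low class. Very low replicate 1, which is outside the contrast, therefore weighs most on these adjusted values.

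**Figure D4:**
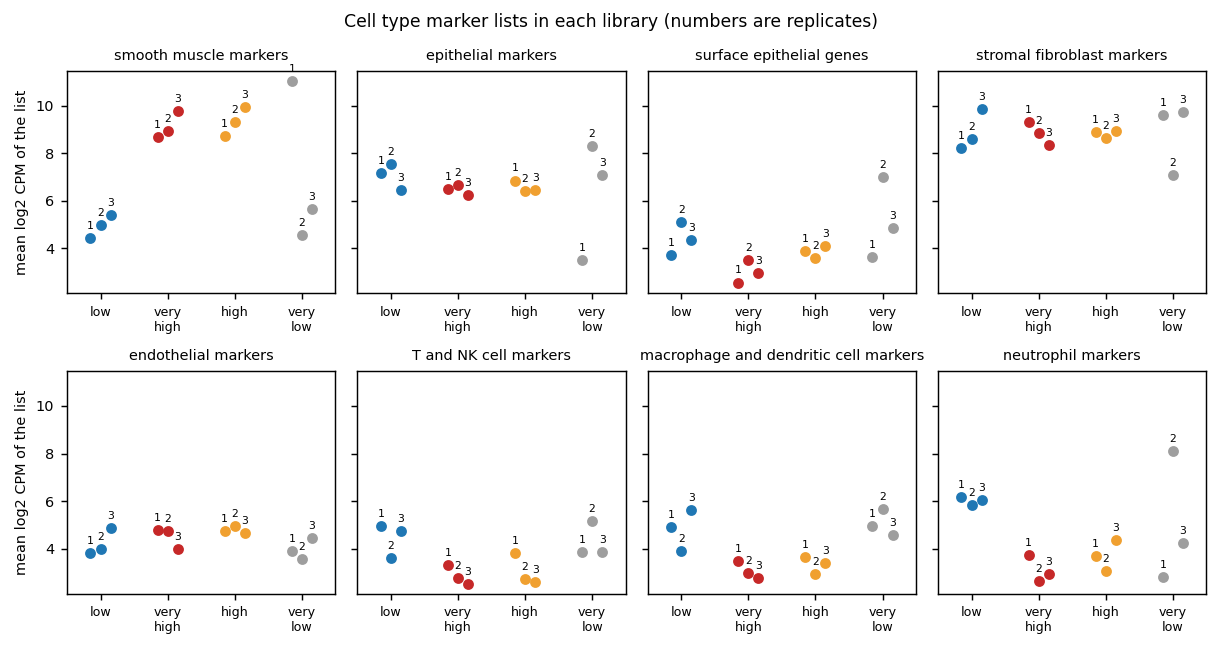
Mean log2 CPM of 8 marker lists (y axis) in each of 12 libraries, by class, with replicate numbers above the points. Smooth muscle markers separate low from very high, and very low replicate 1 has the highest muscle and the lowest epithelial score.

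Leukocyte markers had lower values in the very high class. Of 19 tested T and NK cell markers, 13 were separated downward and none upward, against 11.1% and 11.8% of all tested genes, and all 19 fold changes were below 0 (median -1.82). LCK, the proximal kinase of the T cell receptor, had 73.5, 18.9 and 70.5 CPM in the low libraries and 13.6, 10.6 and 9.76 CPM in the very high ones (log2 fold change -2.26, SE 0.52, edgeR adjusted p = 0.268). CD27 was at 0 counts in both classes, as were AIF1, C1QA and C1QB among the myeloid markers. Of 13 macrophage and dendritic cell markers tested, 9 were separated downward and none upward (median -1.88). TYROBP, a signalling adaptor of myeloid cells, had 61.2, 20.9 and 79.6 CPM against 18.9, 7.85 and 6.86 CPM. FCGR3A, a low affinity Fc receptor from the list of neutrophil markers, had 47.8, 24.4 and 85.5 CPM against 23.9, 13.5 and 12.8 CPM. In LCK and both myeloid genes low replicate 2 was the lowest low library and lay nearest to the very high class. Among 9 B and plasma cell markers the median was -0.79, with 8 fold changes below 0. Of the 9, 1 was separated downward, a share equal to the 11.1% of all tested genes. It was IRF4, a plasma cell transcription factor, at 4.35, 1.28 and 4.92 CPM against 0.343, 0 and 0.264 CPM. MZB1, a plasma cell chaperone of antibody assembly, overlapped between classes at 90.7, 11.5 and 191 CPM against 19.3, 3.86 and 3.83 CPM.

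Neutrophil-associated genes had the lowest median of all lists, -3.26 over 8 tested members, with 5 separated downward and none upward, against 11.1% and 11.8% of all tested genes. S100A12, a calcium-binding alarmin of granulocytes that inflamed epithelia also make, had 310.4, 366 and 565 CPM against 58.8, 52.97 and 46.96 CPM and fell in the fit of the 6 libraries (log2 fold change -2.97, SE 0.28, edgeR adjusted p = 0.01397). S100A8 fell there too (166, 84.2 and 118 against 23.1, 15.95 and 14.1 CPM, edgeR adjusted p = 0.0224). The neutrophil cathelicidins CATHL1 and CATHL4 were at 0 in all 6 libraries. The summed CPM of the list was 3533 to 5328 in the low class, 229 to 314 in the very high class and 418 to 1779 in the high class. Very low replicate 2 held 19249, above every library of the comparison, whereas the other very low libraries held 260 and 673, below every low library. LTF is on this list as well as among the estrogen-responsive genes. It made up most of the sum in the low libraries and in very low replicate 2. Other markers of tissue content were closer in summed CPM. Endothelial markers ran 475 to 1134 against 422 to 750.3 CPM, and mast cell markers 276 to 314 against 271 to 357 CPM. The 5 tested mast cell markers still had a median log2 fold change of -1.52, with 3 below 0, 2 above 0 and none separated.

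Of 34 inflammatory cytokines and chemokines, 15 were separated downward and 2 upward, against 11.1% and 11.8% of all tested genes, with a median of -1.54. CXCL5, a neutrophil attractant, had 161, 149.6 and 122 CPM against 12.5, 2.49 and 3.03 CPM and fell in the fit of the 6 libraries (log2 fold change -4.58, edgeR adjusted p = 0.0361). CCL5, which attracts T cells, had 143, 72.4 and 153 CPM against 38.6, 30.2 and 22.3 CPM (log2 fold change -2.02, SE 0.54, edgeR adjusted p = 0.268). CCL21, the lymphatic chemokine that guides lymphocytes and dendritic cells, went the other way, with counts of 1 in the low libraries together and 214 in the very high libraries, a ratio of 196-fold (95% counting interval 34.8 to 7784). In very low replicates 1 to 3 CCL21 had 95.6, 0 and 0.13 CPM. Of 16 antigen processing and MHC genes, 9 were separated downward and none upward (median -1.36). CD74, the invariant chain of MHC class II, had 5016, 1471 and 4228 CPM against 1180.4, 777 and 737 CPM, and CTSS, the protease that trims it, had 439, 224 and 577 CPM against 189.6, 122 and 83.4 CPM. Of 19 complement genes, 6 were separated downward and 1 upward. CFD, the activator of the alternative pathway, had 83.2, 54.9 and 229.5 CPM against 44.96, 31.9 and 22.7 CPM, and C3AR1, the receptor of the C3a fragment, had overlapping ranges of 4.48 to 34.9 and 3.24 to 6.41 CPM.

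Interferon-stimulated genes lay near the background of all tested genes. Of 24 tested, 1 was separated upward and 2 downward, against 11.8% and 11.1% of all tested genes, with a median of -0.03. STAT2, part of the interferon-activated transcription complex, had 48.9, 50.03 and 29.2 CPM against 55.5, 56.6 and 57.1 CPM and overlaps IL23A. XAF1, an interferon-induced apoptosis factor, had 65.8, 81.9 and 57.7 CPM against 57.2, 44.7 and 24.1 CPM. Immediate early genes, the first transcripts a stimulus or tissue handling induces, had a median of -2.35 over 19 members. Of these, 6 were separated downward, against 11.1% of all tested genes, and none upward. JUNB, an AP-1 subunit, had 84.7, 1212 and 89.9 CPM in the low class and 51.6, 28.2 and 21.9 CPM in the very high class, and DUSP2, a phosphatase of activated MAP kinases, had 14.9, 37.4 and 8.68 CPM against 3.43, 0.374 and 1.98 CPM. Low replicate 2 decided this list: its summed CPM was 15393 against 978 and 1384 in the other low libraries, and without it the median was -0.42.

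Of 21 general epithelial markers, 7 were separated downward and none upward, against 11.1% and 11.8% of all tested genes, with a median of -0.38, whereas of 9 surface epithelial genes 5 were separated downward and 1 upward, with a median of -2.02. With the muscle score as a covariate these medians turned to 2.52 and 0.14. That adjustment leans on very low replicate 1, which had the highest muscle and the lowest epithelial score of all libraries. KRT7, a keratin of simple ducts and lining epithelium, had 135, 216 and 241 CPM in the low libraries and 33.5, 19.4 and 21.1 CPM in the very high libraries and fell in the fit of the 6 libraries (log2 fold change -3.00, edgeR adjusted p = 0.0204). KRT19 had 158, 428 and 399 CPM against 90.96, 87.6 and 70.8 CPM. MSLN, the surface glycoprotein mesothelin, had 123, 248 and 279 CPM against 12.2, 14.6 and 6.86 CPM and fell in the same fit (log2 fold change -4.27, edgeR adjusted p = 0.0191). UPK1B, a tetraspanin of the urothelial surface, had 49.4, 39.5 and 209 CPM against 3.32, 7.23 and 1.06 CPM, with 7.14 to 54.3 CPM in the high class. Of 11 ciliated cell markers, none was separated in either direction, although 10 fold changes were below 0 and the median was -1.04. CAPS and TPPP3, both found in ciliated cells, overlapped between the classes (52.4 to 385 against 55.6 to 111 CPM, and 264 to 611 against 216 to 372 CPM).

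Most stromal and matrix genes had overlapping classes. Of 15 stromal fibroblast markers, 1 was separated upward and 1 downward, against 11.8% and 11.1% of all tested genes (median -0.40, and 0.40 without low replicate 3). The downward member was ANPEP, whose values are given above. PI16, a marker of adventitial fibroblasts, had 3.03, 2.56 and 3.91 CPM against 107, 28.7 and 24.8 CPM (log2 fold change 4.07, SE 1.45, edgeR adjusted p = 0.304). Of 26 collagens and matrix genes, 3 were separated upward and none downward, with a median of 0.07. The upward share of 11.5% was near the 11.8% of all tested genes. COL12A1, a fibril-associated collagen, had 68.4, 136 and 186 CPM against 328, 299.9 and 619.6 CPM, and ELN, which encodes elastin, had 27.3, 42.2 and 72.7 CPM against 129, 132 and 91.2 CPM. Metalloproteinases, which degrade matrix, had wide spreads, and the median of 17 tested was -0.42, or 0.15 without low replicate 2 and 0.03 without low replicate 3. MMP7, the epithelial matrilysin, had 43.1, 48.6 and 92.2 CPM against 0.915, 4.74 and 2.902 CPM and fell in the fit of the 6 libraries (log2 fold change -4.43, edgeR adjusted p = 0.0361). MMP3, stromelysin, was set by low replicate 3, with 17.5, 0.768 and 561 CPM in the low class and 0.343, 0.374 and 0 CPM in the very high class. Among endothelial markers 3 of 19 were separated upward (15.8%, against 11.8% of all tested genes) and none downward. Most of that list went the other way, with 12 of 19 fold changes below 0 and a median of -0.12. MMRN1, of lymphatic endothelium, had counts of 3 in the low libraries together and 204 in the very high libraries, a ratio of 62.3-fold (95% counting interval 21.03 to 305), and LYVE1, a hyaluronan receptor of lymphatic vessels, had 0.791, 1.66 and 4.63 CPM against 5.49, 7.73 and 11.5 CPM. In very low replicates 1 to 3 MMRN1 had 22.98, 0.774 and 0.65 CPM.

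Of 25 glucose and amino acid transporters, 1 was separated upward and 3 downward, against 11.8% and 11.1% of all tested genes (median -0.37). SLC1A3, a glutamate transporter, had 4.35, 4.48 and 11.7 CPM against 1.602, 1.496 and 1.19 CPM. Of 25 sterol and fatty acid synthesis genes, 3 were separated upward and none downward, 23 fold changes were above 0, and the median was 0.31. ACACA, the rate-limiting enzyme of fatty acid synthesis, had 61.9, 79.1 and 13.6 CPM against 142, 314 and 146 CPM (log2 fold change 1.96, SE 0.55, edgeR adjusted p = 0.268), and FASN, the synthase itself, had 101, 117 and 61.5 CPM against 125, 221 and 123 CPM. In both enzymes low replicate 3 was the lowest library and very high replicate 2 the highest. Of 23 genes of lipid uptake and storage, 1 was separated upward and 3 downward. FABP5, a fatty acid carrier, and APOE, a lipoprotein component, had overlapping classes, at 34.7, 15.4 and 85.1 CPM against 24.1, 11.6 and 10.9 CPM and 1820.1, 987 and 7734 CPM against 1064, 532 and 304 CPM.

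Genes of the basic machinery of the cell served as a reference. None of 36 ribosomal protein genes and none of 33 oxidative phosphorylation genes was separated, with medians of -0.31 and -0.21. RPS19 had 413, 335 and 1263 CPM against 444, 413 and 435 CPM. Low replicate 3 was the highest library of the comparison for RPS19, and without it the list's median was 0.12. COX5A and NDUFV2, subunits of respiratory complexes, overlapped between classes. Of 33 heat shock and folding genes, 1 was separated upward and 3 downward, against 11.8% and 11.1% of all tested genes. HSPB8, a small heat shock protein abundant in muscle, had 142, 79.8 and 80.3 CPM against 185, 214 and 353 CPM, and DNAJB11, a chaperone of the endoplasmic reticulum, had overlapping ranges of 48.5 to 113 and 33.5 to 49.9 CPM.

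Of 16 neuropeptide and granule genes, 5 were separated upward and 1 downward, against 11.8% and 11.1% of all tested genes, with a median of -0.13. SCG2, the granule protein secretogranin II, had counts of 3 in the low libraries together and 33 in the very high libraries, a ratio of 10.1-fold (95% counting interval 3.16 to 51.4). Of 15 clock genes, 4 were separated upward and 2 downward, the latter near the share of all tested genes, with a median of 0.33. PER2, a clock repressor, had 4.48, 8.83 and 1.16 CPM against 13.7, 17.1 and 17.3 CPM. BHLHE40, a hypoxia- and clock-linked repressor, had 50.3, 74.5 and 67.6 CPM against 18.5, 15.2 and 12.4 CPM and fell in the fit of the 6 libraries (log2 fold change -2.06, edgeR adjusted p = 0.0225). The labels give no hour of sampling. Of 7 nerve and glia markers, 1 was separated upward, NCAM1, a cell adhesion molecule of neurons and NK cells, at 3.69, 8.700 and 7.53 CPM against 15.8, 12.8 and 26.8 CPM, and TUBB3, a neuronal tubulin, overlapped at 12.3 to 22.9 and 8.23 to 13.5 CPM. Adipocyte and erythroid lists had 2 tested members each, none of them separated.

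The 87 genes called in the fit of the 6 libraries describe the same contrast with a spread taken from these libraries alone, on 4 residual degrees of freedom. All 87 had classes that did not overlap, against 22.8% of the 10959 genes tested over 12 libraries. A call in these same 6 libraries makes such separation likely. Of the 87 genes, 29 belonged to a gene list, as did 687 of the 10959, and 11 of the 42 that rose were smooth muscle markers. Thus 11 of 18 tested smooth muscle markers rose, against 0.395% of all 10642 genes. The genes named from this fit here were chosen after their values were seen. PDLIM3, a scaffold of muscle Z-discs, rose from 3.69, 5.502 and 3.91 CPM in the low libraries to 617, 548 and 1122 CPM in the very high libraries (log2 fold change 7.44, SE 0.44, edgeR adjusted p = 0.00779). ACTG2, the enteric smooth muscle actin, rose from 9.62, 17.8 and 19.97 to 1808, 1924 and 3848 CPM (log2 fold change 7.32, edgeR adjusted p = 0.0125). TPM1, tropomyosin, and MYLK, the kinase that activates smooth muscle myosin, rose by 4.11 and 5.37 on the log2 scale. PYGM and CASQ1, the glycogen phosphorylase and the calcium store protein of striated muscle, rose by 4.67 and 4.72. In the very low class only replicate 1 was high for ACTG2, at 9236, 6.45 and 34.6 CPM in very low replicates 1 to 3.

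RSPO1, a secreted amplifier of WNT signalling, also rose in the fit of the 6 libraries, from 0.395, 0.128 and 0.868 CPM to 33.6, 25.9 and 99.3 CPM (log2 fold change 6.82, edgeR adjusted p = 0.0251). CHRDL2, a secreted BMP antagonist, rose from 0.395, 0.384 and 0.434 CPM to 27.3, 121 and 122 CPM. IL17B, a cytokine of the interleukin 17 family, rose from 0.264, 0.384 and 0.434 to 17.8, 27.5 and 66.1 CPM. These 3 genes also had high levels in very low replicate 1, at 143, 432 and 37.5 CPM. KRT75, a type II keratin, had counts of 3 in the low libraries together and 1731 in the very high libraries, a ratio of 529-fold (95% counting interval 181 to 2567). CADPS, a regulator of dense-core vesicle release, had counts of 2 in the low libraries together and 1130 in the very high libraries, a ratio of 518-fold (95% counting interval 143 to 4282). KRT75 and CADPS too had high levels in very low replicate 1. In very low replicates 1 to 3 KRT75 had 82.5, 0.774 and 0 CPM and CADPS 65.2, 0 and 1.69 CPM. CLDN8, a claudin of tight junctions, rose by 1.53 on the log2 scale, from 59.04, 60.6 and 48.2 CPM to 128, 163 and 193 CPM. In very low replicates 1 to 3 CLDN8 had 0, 12.6 and 7.54 CPM, ACTC1 0, 0.258 and 1.43 CPM and P2RX1 0.707, 0.516 and 0.1300 CPM, so replicate 1 was not high for these 3 genes.

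The genes that fell in that fit numbered 45, and those named here were chosen after their values were seen. TAP, the tracheal antimicrobial peptide, fell from 2857, 276 and 1297 CPM in the low libraries to 21.2, 16.3 and 24.3 CPM in the very high libraries (log2 fold change -6.17, SE 0.90, edgeR adjusted p = 0.0405). DEFB13 and DEFB3, other beta-defensins, fell from 280.1, 48.7 and 62.8 to 2.06, 1.37 and 2.64 CPM and from 24.5, 45.3 and 12.01 to 1.26, 0.623 and 0.528 CPM. Cattle carry many near-identical beta-defensin genes, so how the counting divided reads among TAP, DEFB13 and DEFB3 is uncertain. LBP, which presents bacterial lipopolysaccharide, fell from 69.3, 63.2 and 28.2 to 1.72, 0.374 and 0.6596 CPM (log2 fold change -5.83, edgeR adjusted p = 0.0204). LTF fell by 4.24 on the log2 scale (SE 0.38, edgeR adjusted p = 0.01397). PIGR, the receptor that carries antibodies across epithelium, fell from 1571, 812 and 635 to 92.9, 56.8 and 45.9 CPM (edgeR adjusted p = 0.0249). PI3, the protease inhibitor elafin, fell from 46.7, 38.3 and 12.3 to 1.03, 2.12 and 2.64 CPM, and CSF3, the granulocyte growth factor, from 21.2, 14.2 and 6.95 to 0.686, 0.125 and 0.132 CPM.

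Of the epithelial markers 1 of 21 fell in that fit (KRT7), of the surface epithelial genes 2 of 9 (MSLN and TNS4), and none of either list rose. Over all 10642 genes of that fit, 0.423% fell and 0.395% rose. AGR2, a disulfide isomerase that folds mucins, fell there from 215, 526 and 449 to 24.8, 18.3 and 23.7 CPM (log2 fold change -4.16, edgeR adjusted p = 0.01397), and its relative AGR3 from 4.22, 14.2 and 5.21 to 0.343, 0.374 and 0.264 CPM. GCNT3, which branches mucin sugars, fell from 63.9, 116 and 81.9 to 7.21, 9.099 and 7.52 CPM, and TFF3 fell by 3.50 on the log2 scale. TSPAN1, an epithelial tetraspanin, fell from 560.0, 682 and 613 to 58.01, 78.8 and 72.4 CPM (edgeR adjusted p = 0.0104), although its log2 fold change was 0.35 with the muscle score as a covariate. TNS4, a focal adhesion protein of epithelia, and FGFBP1, a carrier that releases fibroblast growth factors, fell by 4.95 and 4.43 on the log2 scale. CFB and CFI, an activator and an inhibitor of complement, fell together, CFB from 314, 771 and 829.8 to 82.4, 40.1 and 39.7 CPM and CFI from 153, 137 and 104 to 45.1, 54.7 and 51.7 CPM. RHOH, a GTPase of blood cells, fell by 2.72 on the log2 scale. TACC3, a spindle protein, fell from 32.8, 32.5 and 46.7 to 11.4, 8.73 and 9.37 CPM, and TUBA4A, an alpha-tubulin, from 44.5, 45.3 and 56.4 to 12.9, 13.96 and 14.4 CPM.

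LTF had 116, 15745 and 547 CPM and AGR2 29.5, 2237 and 76.95 CPM in very low replicates 1 to 3, so that replicate 2 was above the whole low class and replicate 1 below it. In the high class LTF had 322 to 1612 CPM and TAP 6.38 to 43.6 CPM, with replicate 3 the highest for both. The high class thus lay below all low libraries for LTF, AGR2 (15.6 to 176 CPM) and TAP, as the very high class did. The summed epithelial markers of very low replicate 1 were also low, at 494.7 CPM, and their part in these values was not tested.

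**Figure D5:**
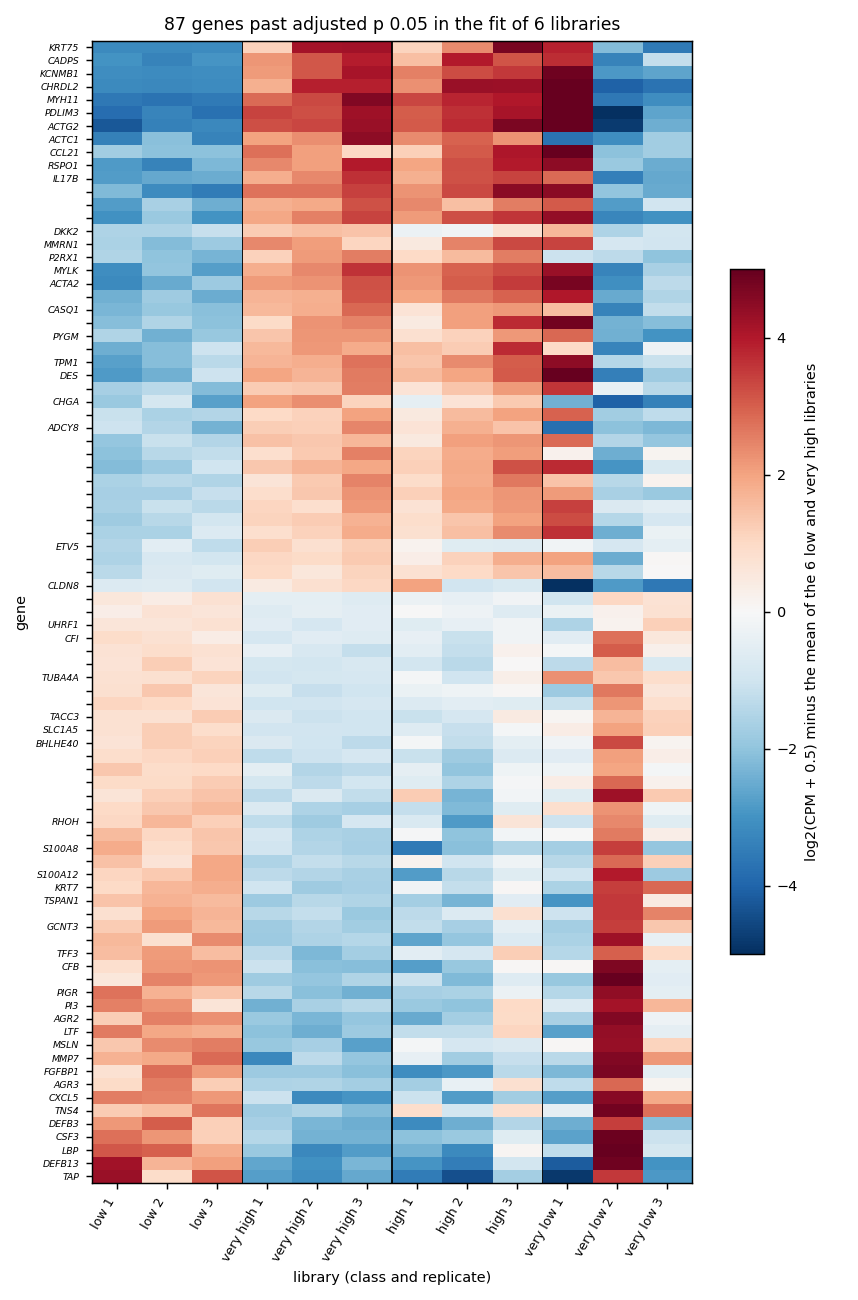
Levels of the 87 genes called in the fit of the 6 libraries, as log2(CPM + 0.5) minus the mean of those 6 libraries, in all 12 libraries (columns), ordered by fold change, with names for part of the genes. The first 42 rows are higher and the other 45 lower in very high than in low. Very low replicate 1 is above the very high class for many of the upper genes, and very low replicate 2 above the low class for many of the lower ones.

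Very high progesterone was last set against high progesterone, to see whether the top class differs from the one below it. No gene passed the threshold (0 of 10959, 0%), 87 genes had an unadjusted p below 0.05 (0.794%), and the classes did not overlap for 777 genes (7.09%). DESeq2 and the other alternatives for this contrast gave 0 calls as well. None of the 87 genes called for very high against low in the 6 libraries had an adjusted p below 0.05 for very high against high. Both comparisons use the same very high libraries, so their values are given side by side only. The median log2 fold change of very high against high was -0.87 for mitosis genes, -0.76 for neutrophil markers and -0.18 for T and NK cell markers, where very high against low gave -2.32, -3.26 and -1.82. DLGAP5 had 1.61, 1.53 and 2.86 CPM in the high libraries against 0.801, 0.499 and 0.528 CPM in the very high ones, and CD68 had 28.04, 21.6 and 28.2 against 17.96, 14.6 and 10.7 CPM. For both genes the very high libraries were the lowest of the 12.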

How the data were processed

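Endometrial RNA of 12 libraries was sequenced. Per the labels' protocols, it was extracted with Trizol, captured with oligo-dT, made into stranded TruSeq libraries and sequenced from 1 pool. The authors deposited raw counts, 1 whole number for each gene symbol and library. Builds UMD3.1 and bosTau8, with Trimmomatic 0.32 and FastQC 0.11.2, are listed per the submitters' processing notes. The aligner, counter and strand setting were not given in the sources used here, so overlapping genes may share reads (8 of 89 genes named by rule overlap a tested gene: MYL4, PLTP, TGFB1, STAT2, MYH11, CAPS, TPPP3 and PLIN1). Of the symbols, 13492 matched the ARS-UCD2.0 gene table by name and 345 by synonym. No coordinates are printed, since the builds differ.

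The main test was edgeR 4.0.16 (R 4.3.3) on all 12 libraries with TMM scaling, filterByExpr at a minimum count of 10, 4 class means, 8 residual degrees of freedom and Benjamini-Hochberg adjustment at 0.05. Counting intervals are 95% intervals and cover counting error only. The members and the 39 lists were chosen with earlier results of these data known. The rule named PGR, ESR1 and OXTR, the 8 genes with the smallest p in each direction and the 2 with the smallest p of each list, without locus-number genes, and 1 gene so named is not reported here. Alternatives were DESeq2 1.42.0, limma-voom (limma 3.58.1), other scalings and filters, thinning, a replicate block, muscle and epithelial scores as covariates, the 6 libraries alone and leaving out each library. The test was checked on simulated data, where recovery of changes was required only at a spread far below the observed one. That check does not show how many changes the test would find at the observed spread.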

Additional observations from a re-analysis of the deposited data

How the results depend on the processing

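The count of 0 genes called for very high against low held under limma-voom, other size factors, no filter, a stricter filter, the replicate block and 9 of 12 leave-one-out fits, in which it ran from 0 to 65 (higher 0 to 48, lower 0 to 17). It was 65 without very low replicate 1, 1 (lower) without very low replicate 2 and 1 (higher) without very high replicate 1. It was 370 with DESeq2 (121 higher, 249 lower), 87 in the 6 libraries alone (42 and 45), 84 with the muscle score (66 and 18), 41 with the epithelial score (34 and 7), 2 after thinning to the smallest total (both higher) and 223 without the very low class (108 and 115). For very high against high the count was 0 in every alternative (87 genes at an unadjusted p below 0.05 in edgeR over 12 libraries). The replicate numbers do not pair the libraries: same-numbered low and very high libraries had correlations of -0.10, 0.18 and -0.21, not every library correlated best with its own number, and with the replicate block 0 genes were called, with 1148 at an unadjusted p below 0.05 in place of 1304.

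Of 125 genes named by the rule or in the text, 107 kept the sign of their fold change in every alternative that tested them (22 to 24 of 24). With the muscle score as covariate, log2 fold changes turned to 1.14 for CAPS, 0.40 for CFI, -0.33 for CHRDL2, 1.67 for CSF3, 0.071 for DEFB13, -1.22 for DES, -0.12 for ELN, -0.011 for HSPB8, 0.093 for KRT19, -0.47 for LTBP1, -1.46 for LYVE1, -0.51 for PYGM, 0.12 for TGFB1, 0.35 for TSPAN1, 0.039 for UHRF1 and 0.89 for XAF1. The covariate takes out what moves with muscle markers, with very low replicate 1 weighing most on its slope, and the cause of each reversal was not tested. Leaving out 1 library at a time, ESR1 ran from -0.79 (without low replicate 3) to 0.48 (without low replicate 2), and RPS19 from -0.95 (without low replicate 2) to 0.21 (without low replicate 3). At totals of 7036929 to 8379489 counts, a class total of 3 counts or fewer gives only a ratio with a wide interval, and 3 libraries a class cannot go below an exact p of 0.10.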
